A study of Homo sapiens with 6 samples.

Results

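Focal adhesion kinase (FAK), phosphoinositide 3-kinase (PI3K), AKT and mTOR form a relay from the cell surface to cell growth. FAK is a tyrosine kinase at the contacts between integrins and the extracellular matrix, and once active it recruits PI3K to the membrane. PI3K makes the lipid PIP3, which brings AKT to the membrane, where PDK1 and mTOR complex 2 phosphorylate it, and AKT then relieves the brake that the TSC proteins place on mTOR complex 1. In osteosarcoma (OSA) the pathway is known for its part in growth, survival and invasion. Its output is set largely by phosphorylation, which a transcript count does not show.

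The genes described here are 8 of the 19937 genes in the count table, taken by symbol as the core of this relay. They are PTK2, which encodes FAK, the PI3K genes PIK3CA and PIK3R1, the kinases AKT1, AKT2 and MTOR, and RPTOR and RICTOR, the defining subunits of mTOR complex 1 and mTOR complex 2. All 8 identifiers were present in the table and all 8 passed the filter on low counts, as did 12450 genes in all. The rule that chose them names symbols and uses no measured value, but it was set with earlier results of these data known.

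The libraries came from U2OS, an established human OSA cell line, as poly(A) RNA read in pairs of 151 bp. Lentiviral pGIPZ vectors carried either a hairpin against squalene epoxidase (SQLE), an enzyme of cholesterol synthesis (shSQLE, 3 libraries), or a scrambled hairpin (shControl, 3 libraries), and both stable lines had been selected for 2 weeks in puromycin at 2 µg/mL. Which of the designed hairpins the sequenced line carried is not given in the sources used here, nor whether the libraries of a line came from separate cultures. The study states in general that results came from at least 3 independent experiments, of which 1 is shown, with at least 3 technical replicates per test. Which of these the libraries of a line are is not said. The p-values thus measure the spread between these libraries, which may be technical. The comparison asks whether SQLE silencing moved the transcripts of this relay. The study blotted the phosphorylation of FAK, PI3K, AKT and mTOR, with a PI3K antibody against the product of PIK3R1. Its listed antibodies include none against the products of PIK3CA, RPTOR or RICTOR.

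Total counts ran from 12212378 to 14393292 per library. The normalized count of SQLE itself was 1349 to 1924 in the shControl libraries and 204 to 229 in the shSQLE libraries, which left 12.7% of the control mean. The U2OS libraries held the mesenchymal marker VIM at 36305 to 46302 counts and the bone markers RUNX2, SPP1 and COL1A1, whereas SP7 and IBSP had 0 counts and ALPL, BGLAP and COL1A2 had at most 6 in any library. Of 12 markers of other cell types, 9 were too low to test (at most 2 counts in any library), and the others (PECAM1, EPCAM and SNAP25) had between 2 and 76 counts. Of the markers tested, COL1A1 was lower in shSQLE (log2 fold change -0.65, adjusted p = 0.0452, edgeR), while PECAM1 (-1.67, adjusted p = 0.0933) and EPCAM (0.40, adjusted p = 0.362) did not pass. shControl replicate 1 stood apart from the other control libraries along a gradient of GC content, described below with the genes it touches.

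Windows around the blotted sites of AKT, mTOR and p85α are shown because antibodies against the phosphorylated proteins read there, and the window of the FAK site is not shown. The AKT1 and AKT2 windows also show how the transcripts of these paralogs differ. Each line gives 30 nt of coding sequence of the GENCODE v44 canonical transcript on hg38, 5′ to 3′, with the codon of the phosphorylated residue in capitals. AKT1 threonine 308 lies in exon 11, at chr14:104773272-104773301 on the − strand. The equivalent residue is AKT2 threonine 309, in exon 10 at chr19:40236278-40236307 on the − strand. MTOR serine 2448 lies in exon 54, at chr1:11112862-11112891 on the − strand. PIK3R1 tyrosine 607 lies in exon 15, at chr5:68296175-68296177 on the + strand, and its window crosses an exon junction.
AKT1: ggtgccaccatgaagACCttttgcggcaca
AKT2: ggggccaccatgaaaACCttctgtgggacc
MTOR: cgaacgaggacggatTCCtactctgctggc
PIK3R1: aacactgaagaccaaTATtcactggtggaa
AKT1 and AKT2 encode the same 10 amino acids in this window, yet their transcripts differ at 6 of 30 bases. When 151-bp windows of the canonical transcripts, taken every 25 bp, were aligned to the genome, 0 windows of AKT1 and AKT2 had a second place scoring within 95% of the first. The same held for PTK2, PIK3R1, MTOR, RPTOR and RICTOR. PIK3CA was the exception, with 34 of 365 windows (9.32%) that matched a second place, 33 of them on chromosome 22, and its counts are uncertain to that extent because the handling of reads with several places is not stated.

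AKT1 was the most abundant of the 8 transcripts and the PI3K genes were the least abundant. Levels were compared between genes as normalized counts per kb of exon, where a normalized count is rescaled to the average effective size of the 6 libraries. AKT1 stood at 401 ± 62.0 per kb in shControl and 424 ± 29.1 in shSQLE (SD, n = 3). PTK2 followed at 157 ± 30.1 and 144 ± 7.25 per kb. AKT2 (101 ± 8.73 and 112 ± 5.6), MTOR (93.9 ± 16.7 and 103 ± 21.5) and RPTOR (91.2 ± 3.87 and 95.1 ± 4.19 per kb) formed a group in which neighbours overlapped in both conditions. RICTOR came next at 61.8 ± 20.8 and 47.0 ± 9.31 per kb, then PIK3CA at 27.7 ± 10.0 and 26.6 ± 2.77, and PIK3R1 at 19.2 ± 6.98 and 17.0 ± 4.21. PIK3CA and PIK3R1 overlapped in shControl and did not in shSQLE, and the order of the 8 genes was the same in both lines. The grouping of AKT2 with MTOR and RPTOR depended on the length used. Per kb of the canonical transcript, AKT2 averaged 305 in shControl and 338 in shSQLE. MTOR averaged 144 and 158 on that scale, and RPTOR 137 and 143.

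**Figure D1:**
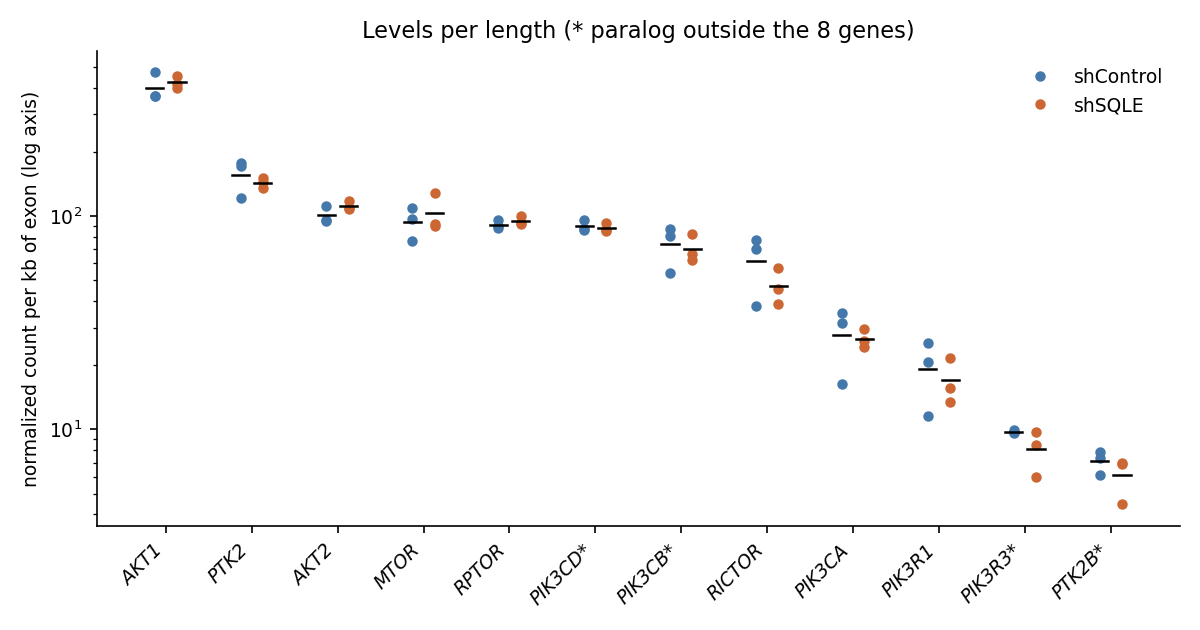
Normalized count per kb of exon (log axis) for the 8 genes and 4 paralogs, with 1 point per library and a bar at the mean of 3 libraries, in shControl and shSQLE. AKT1 lies above all others in each library, and the genes lie in nearly the same order in both lines.

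The libraries held transcripts of more catalytic PI3K genes than the named member. Among 3 catalytic PI3K genes, as shares of their summed level per kb in shControl and shSQLE, PIK3CD (47.5% and 47.8%) and PIK3CB (38.3% and 37.8%) each exceeded PIK3CA (14.2% and 14.4%). PIK3CD encodes the p110δ subunit, best known from leukocytes, and its level per kb was 89.6 in shControl and 88.1 in shSQLE. PTK2B, which encodes the FAK relative PYK2, was at 7.09 and 6.11 per kb. No test was run on the shares or levels, and the shares leave out PIK3CG, which was also detected.

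None of the 8 transcripts passed the test between the shSQLE and shControl lines. By the quasi-likelihood test of edgeR (Benjamini-Hochberg adjusted p under 0.05), 0 of 8 were called, where 3.21% of all genes tested were. At an unadjusted p under 0.05 the count was 0 of 8 (14.7% of all genes), with DESeq2 it was 0 of 8 (5.16%), and 0 of 8 had groups that did not overlap (22.1%). The log2 fold changes ran from -0.40 for RICTOR to 0.15 for AKT2, with 4 below and 4 above 0 and a median of 0.00, beside -0.01 over all genes tested. In a bulk sample, fewer cells making a transcript and less of it per cell cannot be told apart.

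FAK is the entry of the relay. PTK2 (ENSG00000169398, chromosome 8:140657900-141002216 on hg38, − strand, 36 exons) had normalized counts of 1681, 2433 and 2355 in shControl replicates 1, 2 and 3 and of 2069, 1870 and 1978 in shSQLE. The shSQLE libraries lay within the range of the shControl libraries, of which replicate 1 was the lowest. The log2 fold change was -0.13 (SE 0.15, 95% interval -0.48 to 0.22, adjusted p = 0.784, edgeR), or a fold of 0.914 with an interval from 0.716 to 1.17.

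The PI3K heterodimer joins a catalytic and a regulatory subunit. PIK3CA (ENSG00000121879, 3:179148114-179240093, + strand, 21 exons) encodes the p110α catalytic subunit and had normalized counts of 281, 544 and 603 in shControl and of 446, 417 and 510 in shSQLE. Its log2 fold change was -0.06 (SE 0.26, interval -0.67 to 0.55, adjusted p = 0.952, edgeR). PIK3R1 (ENSG00000145675, 5:68215740-68301821, + strand, 16 exons) encodes the p85α regulatory subunit, which holds p110 in check until it binds a phosphorylated receptor, and had 189, 339 and 413 in shControl and 256, 221 and 354 in shSQLE. For both genes shControl replicate 1 was well below the other controls, and the shSQLE libraries lay between it and the highest control. The log2 fold change of PIK3R1 was -0.18 (SE 0.29, interval -0.86 to 0.49, adjusted p = 0.853, edgeR), the widest interval of the 8. The log2 ratio of PIK3CA to PIK3R1 was 0.57, 0.68 and 0.55 in shControl and 0.80, 0.92 and 0.53 in shSQLE, a difference of 0.15 (two-sided exact permutation test, p = 0.4, adjusted p over 4 ratios = 0.5, where 3 libraries against 3 cannot go below 0.1).

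AKT1 and AKT2 encode close kinases with separate roles, AKT1 mainly in growth and survival and AKT2 mainly in the response to insulin. AKT1 (ENSG00000142208, 14:104769349-104795751, − strand, 15 exons) had normalized counts of 5173, 3995 and 4000 in shControl and 4557, 4996 and 4375 in shSQLE. AKT2 (ENSG00000105221, 19:40230317-40285536, − strand, 14 exons) had 1759, 1507 and 1532 in shControl and 1729, 1877 and 1717 in shSQLE. In both genes shControl replicate 1 was the highest control and the shSQLE libraries lay above the other 2 controls. The log2 fold change was 0.08 for AKT1 (SE 0.13, interval -0.22 to 0.39, adjusted p = 0.857, edgeR) and 0.15 for AKT2 (SE 0.11, interval -0.10 to 0.40, adjusted p = 0.628, edgeR). The log2 ratio of AKT1 to AKT2 was 1.56, 1.41 and 1.38 in shControl and 1.40, 1.41 and 1.35 in shSQLE, a difference of -0.06 (two-sided exact permutation test, p = 0.5, adjusted p = 0.5).

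mTOR works in 2 complexes, with raptor (RPTOR) in the one that drives protein synthesis and rictor (RICTOR) in the one that phosphorylates AKT. MTOR (ENSG00000198793, 1:11106535-11262556, − strand, 58 exons) had normalized counts of 1018, 1460 and 1290 in shControl and 1208, 1223 and 1713 in shSQLE, and shSQLE replicate 3 was the highest of the 6. RPTOR (ENSG00000141564, 17:80544819-80966371, + strand, 34 exons) had 983, 930 and 904 in shControl and 949, 961 and 1029 in shSQLE, the narrowest spread of the 8 genes. The log2 fold change was 0.14 for MTOR (SE 0.19, interval -0.29 to 0.57, adjusted p = 0.821, edgeR) and 0.06 for RPTOR (SE 0.10, interval -0.18 to 0.30, adjusted p = 0.865, edgeR). RICTOR (ENSG00000164327, 5:38937920-39074402, − strand, 38 exons) had 513, 944 and 1038 in shControl and 610, 520 and 768 in shSQLE. The shSQLE libraries lay below shControl replicates 2 and 3 and above replicate 1. RICTOR had the largest log2 fold change of the 8, -0.40 (SE 0.27, interval -1.01 to 0.22, adjusted p = 0.587, edgeR), or a fold of 0.760 with an interval from 0.496 to 1.16.

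The test of the ratio of the complex subunits cannot give a p below 0.1 with so few libraries. It could therefore not pass the threshold used here, and no conclusion is drawn from it. The log2 ratio of RPTOR to RICTOR was 0.94, -0.02 and -0.20 in shControl and 0.64, 0.88 and 0.42 in shSQLE, a difference of 0.41 (two-sided exact permutation test, p = 0.4, adjusted p = 0.5). OSMR, which encodes an oncostatin M receptor subunit, overlaps RICTOR on the opposite strand by 229 exonic bp (1.70% of the exon length of RICTOR), and whether the counting used strand is not stated. OSMR had normalized counts of 1023, 1617 and 1713 in shControl and 903, 780 and 914 in shSQLE (log2 fold change -0.75, adjusted p = 0.104, edgeR). KCNMB3 overlaps 19.80% of the exon length of PIK3CA and had at most 15.4 normalized counts, and ANGPTL7, opposite 1.13% of MTOR, had 0 counts. The part of these overlaps in the counts was not tested.

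**Figure D2:**
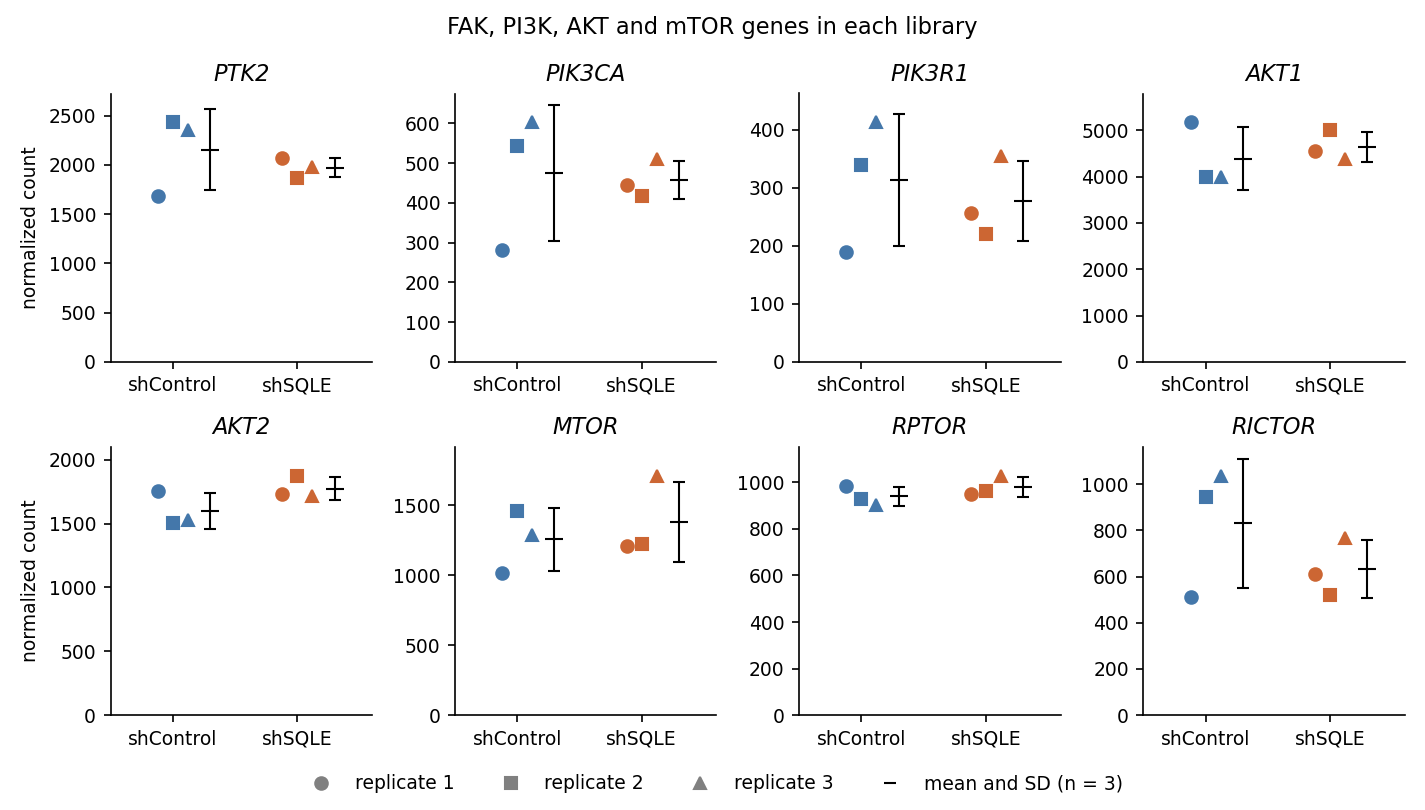
Normalized count of each of the 8 genes in each library (y axes start at 0), with the mean and SD of 3 libraries per line. shControl replicate 1 (blue circle) is the lowest control for PTK2, PIK3CA, PIK3R1, MTOR and RICTOR and the highest for AKT1, AKT2 and RPTOR, and no gene has groups that do not overlap.

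The intervals set what sizes of change remain compatible with the libraries. For PTK2, AKT1, AKT2, MTOR and RPTOR (5 of 8) the whole 95% interval lay within a 1.5-fold change in either direction, as it did for 47.5% of all genes tested. For 7 of 8 it lay within a 2-fold change (84.9% of all genes), and RICTOR was the exception, its lower bound just beyond. The distance from the estimate to either bound ranged from 0.241 to 0.679 on the log2 scale with a median of 0.392, close to the median of 0.413 over all genes. These intervals concern transcripts and say nothing of protein or phosphorylation.

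The spread among the controls came mostly from 1 library, and it followed GC content. Relative to the mean log2 CPM of shControl replicates 2 and 3, replicate 1 was at -1.03 for PIK3CA (transcript GC 35.7%), -0.95 for RICTOR (36.5%), -0.98 for PIK3R1 (40.1%), -0.51 for PTK2 (45.1%) and -0.43 for MTOR (52.3%). It was at 0.21 for AKT2 (58.0%), 0.10 for RPTOR (60.0%) and 0.37 for AKT1 (61.2%). Over the genes tested the median of this deviation rose from -0.584 in the quintile of genes with the lowest GC to 0.563 in the quintile with the highest. The 4 genes of the relay with the lowest GC thus read lower, and the 3 with the highest GC higher, in shControl replicate 1 than in the other controls, whereas MTOR read lower although the median of its quintile was above 0. The part of this gradient in the comparison was examined only by the alternative fits that follow.

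**Figure D3:**
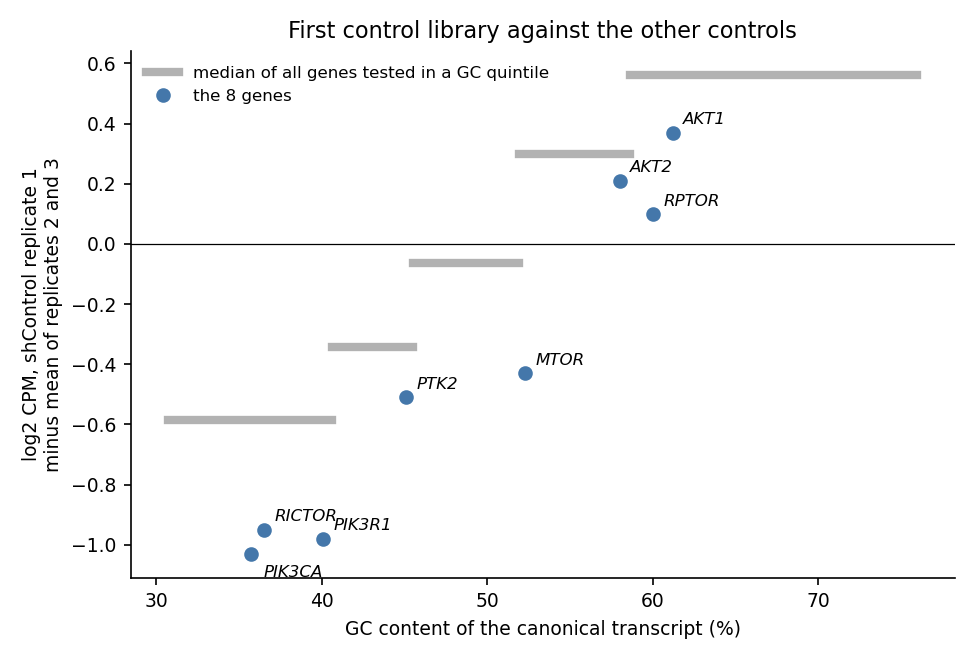
Deviation of shControl replicate 1 from the mean of shControl replicates 2 and 3 (log2 CPM) against the GC content of the canonical transcript (%), for the 8 genes (points) and as the median of all genes tested in each GC quintile (grey bars over its GC range). The 3 genes with the lowest GC lie near -1 and the 3 with the highest lie above 0.

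Leaving out shControl replicate 1 changed the call of 4 of the 8 genes, against a background that grew as well. With edgeR on the remaining 5 libraries, 4 of 8 genes were called, where 33.9% of all genes tested were. RICTOR fell by 0.65 on the log2 scale (SE 0.13, adjusted p = 0.00315), PIK3CA fell by 0.33 (SE 0.11, adjusted p = 0.0349), PTK2 fell by 0.28 (SE 0.08, adjusted p = 0.0166), and AKT2 rose by 0.22 (SE 0.08, adjusted p = 0.0477). AKT1 (0.22, adjusted p = 0.0533), PIK3R1 (-0.44, adjusted p = 0.058), RPTOR (0.09) and MTOR (0.01) did not pass. On 6 libraries the median log2 fold change of all genes lay between -0.0724 and 0.0244 in the 5 GC quintiles, whereas without that library it went from -0.239 in the quintile with the lowest GC to 0.199 in the quintile with the highest. Across genes, the median difference between the lines followed GC content more steeply without shControl replicate 1. The calls of GC-poor RICTOR, PIK3CA and PTK2 were lower and that of GC-rich AKT2 was higher. Whether the gradient has a part in these calls was not tested.

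AKT2 was the member called most often once GC content was modelled. With smooth offsets for GC content and length in each of the 6 libraries, AKT2 rose by 0.24 (SE 0.06, adjusted p = 0.0211, edgeR), the single call among the 8, where 20.8% of all genes were called and the median of all genes was 0.06. With the replicate block added, the count was again 1 of 8, beside 19.2% of all genes. RPTOR (0.19, adjusted p = 0.0591), AKT1 (0.14, adjusted p = 0.0903), PIK3CA (0.17, adjusted p = 0.19), MTOR (0.28, adjusted p = 0.12), PTK2 (-0.04), PIK3R1 (-0.01) and RICTOR (-0.18, adjusted p = 0.141) did not pass. The offsets were estimated from the same libraries and then treated as known, so the SE and p-values leave out their uncertainty. For RICTOR the SE was 0.27 in the main fit and 0.08 with the offsets. PIK3CA changed sign under these offsets, and RICTOR kept a negative value in all 16 alternative fits, from -0.65 to -0.18. AKT2 had a positive value in all 16, from 0.11 to 0.26, and was called in 4 of them. With the offsets and without shControl replicate 1, a combination chosen after seeing the data, 3 of 8 were called (36.9% of all genes), namely AKT2 (0.26, adjusted p = 0.00194), RPTOR (0.17, adjusted p = 0.045) and RICTOR (-0.21, adjusted p = 0.0254).

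**Figure D4:**
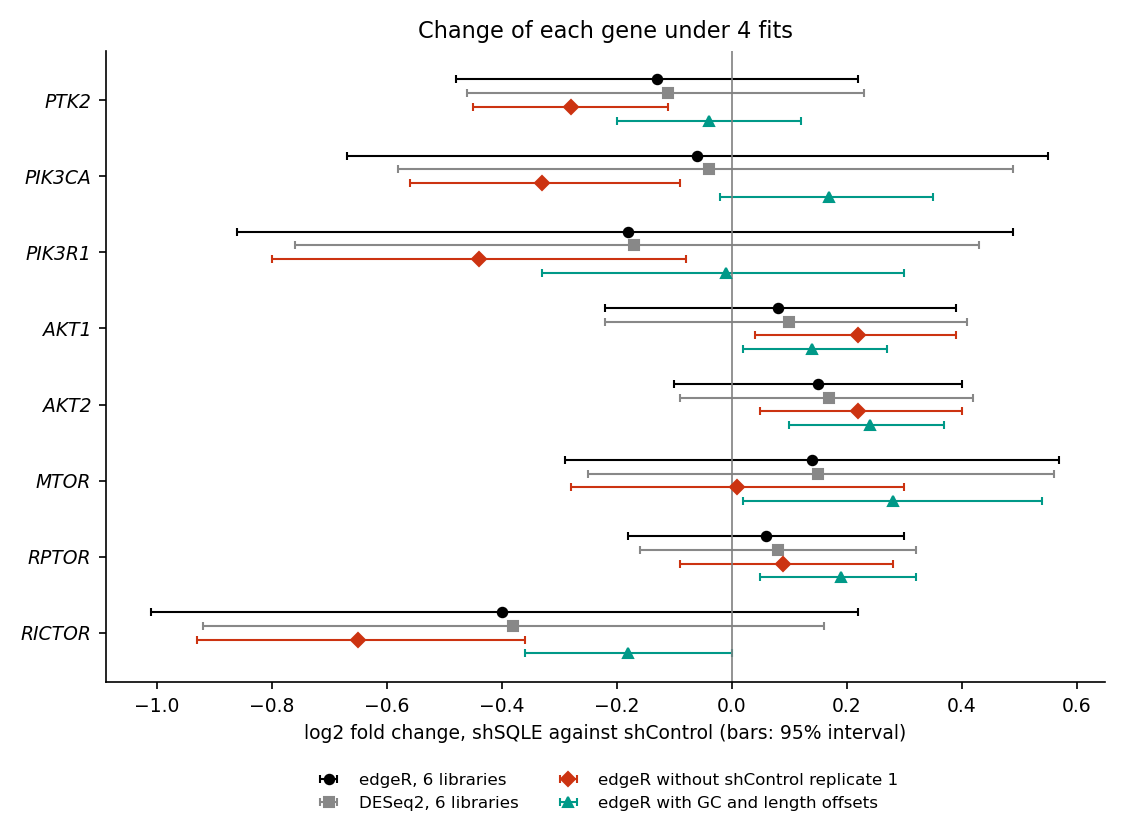
Log2 fold change of shSQLE against shControl with its 95% interval for each of the 8 genes, in edgeR and DESeq2 on 6 libraries, in edgeR without shControl replicate 1, and in edgeR with GC and length offsets. Intervals from the first 2 fits include 0 for every gene, RICTOR is negative in each fit shown, and PIK3CA lies on different sides of 0 in the last 2.

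The genes whose pattern over the 6 libraries was most like that of each member were found by Pearson correlation of log2 CPM among 9867 genes whose normalized count averaged 100 or more. They were LRRC8C for PTK2 (r = 0.9991), PCNX4 for PIK3CA (0.999), CREBL2 for PIK3R1 (0.9998) and RFX7 for RICTOR (0.9997). For the GC-richer members they were DOHH for AKT1 (0.999), NLE1 for AKT2 (0.9982), LHX1 for MTOR (0.9969) and EIF4G1 for RPTOR (0.9791). With 6 points from 6 libraries and the best of so many candidates, values near 1 describe these libraries alone, and the points share the gradient of GC content. The transcript GC of these genes was 37.8% for LRRC8C and PCNX4, 40.2% for CREBL2 and 40.6% for RFX7, and 53.6% to 68.5% for the others.

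Direct partners and paralogs gave 0 calls too in the main edgeR fit. PIK3CB (-0.08), PIK3CD (-0.02), PTK2B (-0.21) and PIK3R3 (-0.28, which shares exons with an annotated readthrough gene) had adjusted p from 0.649 to 0.954. Of the other mTOR complex subunits, MAPKAP1, which encodes the SIN1 subunit of mTOR complex 2, had 1437, 1427 and 1416 in shControl and 1839, 1886 and 1799 in shSQLE, with no overlap between the groups (log2 fold change 0.37, SE 0.09, adjusted p = 0.0944, edgeR), and it was called in 5 of 16 alternative fits, DESeq2 among them. MLST8, the subunit shared by both complexes, and AKT1S1, the raptor-bound inhibitor PRAS40, were at 0.23 and 0.32 (adjusted p = 0.771 and 0.568, edgeR). MLST8 and AKT1S1 were each called in 4 of 16 alternative fits. The AKT kinase PDPK1 was at -0.04, the brakes TSC1 and TSC2 at 0.07 and -0.07, and the mTORC1 activator RHEB at 0.10, with adjusted p from 0.739 to 0.973.

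Around this core, 10 lists of pathway genes were counted, 147 genes in all, of which 134 passed the filter. In the fit on 6 libraries 4 of the 134 (2.99%) were called, 2 lower and 2 higher, beside 3.21% of all genes (2.84% lower and 0.369% higher). At an unadjusted p under 0.05 (edgeR) there were 26 of the 134, beside 14.7% of all genes. The median was -0.03 (all genes -0.01). The groups did not overlap in 35 of 134 (26.1%, beside 22.1% of all genes). In the main edgeR fit no gene was called among the other class I PI3K subunits (4 tested, median -0.05), the other AKT and mTOR complex genes (9, median 0.14), RHEB, the Rag GTPases and amino acid sensing genes (30, median 0.02), the FAK partners (12, median 0.06), the AKT substrates (15, median -0.10) and the mTORC1 and mTORC2 substrates (20, median -0.02). The gene with the smallest p in each of the last 4 lists was LAMTOR5 (0.43, adjusted p = 0.166), BCAR1 (0.39, adjusted p = 0.411), FOXO1 (-0.67, adjusted p = 0.193) and ULK1 (-0.58, adjusted p = 0.0844), respectively (edgeR). With GC and length offsets, 4 of the 9 other AKT and mTOR complex genes were called, all higher, beside 20.8% of all genes (12.1% higher). Of the 20 mTORC1 and mTORC2 substrates, 3 were then called lower and 4 higher. The PI3K subunits had 0 calls, the FAK partners 1 higher, the AKT substrates 1 lower, and the RHEB list 1 lower and 2 higher.

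GRB10 fell among the receptors and adaptors upstream of PI3K. It encodes an adaptor that binds the insulin and IGF-1 receptors and restrains their signal, and it had normalized counts of 1970, 2006 and 2107 in shControl and 1141, 1074 and 1105 in shSQLE. The groups were far apart and each was tight, with a log2 fold change of -0.87 (SE 0.10, adjusted p = 0.00368, edgeR). It was called in all 16 alternative fits, from -0.92 to -0.77. Of the 10 genes of that list, 8 were below 0 and 1 was called lower (2.84% of all genes), with a median of -0.26. The groups did not overlap in 6 of the 10, of which 5 were lower, beside 22.1% of all genes in either direction.

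PIK3IP1 fell among the brakes on the pathway. It encodes a membrane protein that binds the p110 catalytic subunit and inhibits it, and its normalized counts were 38.1, 37.1 and 40.2 in shControl and 4.90, 8.87 and 5.14 in shSQLE, a low gene in both lines. The log2 fold change was -2.58 (SE 0.30, adjusted p = 0.00406, edgeR), and it was called in all 15 alternative fits that tested it, from -2.91 to -2.43. Of the 13 brakes tested, 10 were below 0 and 1 was called lower (2.84% of all genes), with a median of -0.18. PIK3IP1 is also on the list of genes that FOXO factors, which AKT keeps out of the nucleus, are known to raise, and there it was the single call among 15 tested genes, of which 14 were below 0 (median -0.16). The groups did not overlap in 7 of these 15, of which 6 were lower, beside 22.1% of all genes in either direction, and 2.84% of all genes were called lower.

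The amino acid genes known to respond to mTORC1 through ATF4 had the highest median of the lists, 0.38, with 11 of 12 above 0. PHGDH, the first enzyme of serine synthesis, had normalized counts of 25260, 16440 and 15320 in shControl and 44760, 45450 and 35800 in shSQLE, and rose by 1.14 on the log2 scale (SE 0.20, adjusted p = 0.0253, edgeR). SLC7A5, a transporter that brings leucine into cells and has pseudogene copies whose reads may not be told apart from it, had 3583, 3271 and 2862 in shControl and 5475, 5251 and 4877 in shSQLE and rose by 0.68 (SE 0.12, adjusted p = 0.0211, edgeR). For both, every shSQLE library lay above every shControl library. Both calls were kept without shControl replicate 1 and were lost when any of the other 5 libraries was left out (adjusted p up to 0.138 for SLC7A5 and 0.131 for PHGDH, with log2 fold changes of at least 0.61 and 1.02). PSAT1 (0.58, adjusted p = 0.0538) and MTHFD2 (0.48, adjusted p = 0.0751), named after their values were seen, did not pass, while ASNS, another ATF4 target, had only 12 to 16 counts per library and a value of -0.11. ATF4 itself, also on the list, was at 0.41 (adjusted p = 0.3, edgeR), and its groups overlapped. The list holds amino acid genes and does not gather all targets of ATF4, so it does not describe ATF4 output as a whole. With GC and length offsets 11 of the 12 were called, all higher, where 20.8% of all genes were called (12.1% higher).

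**Figure D5:**
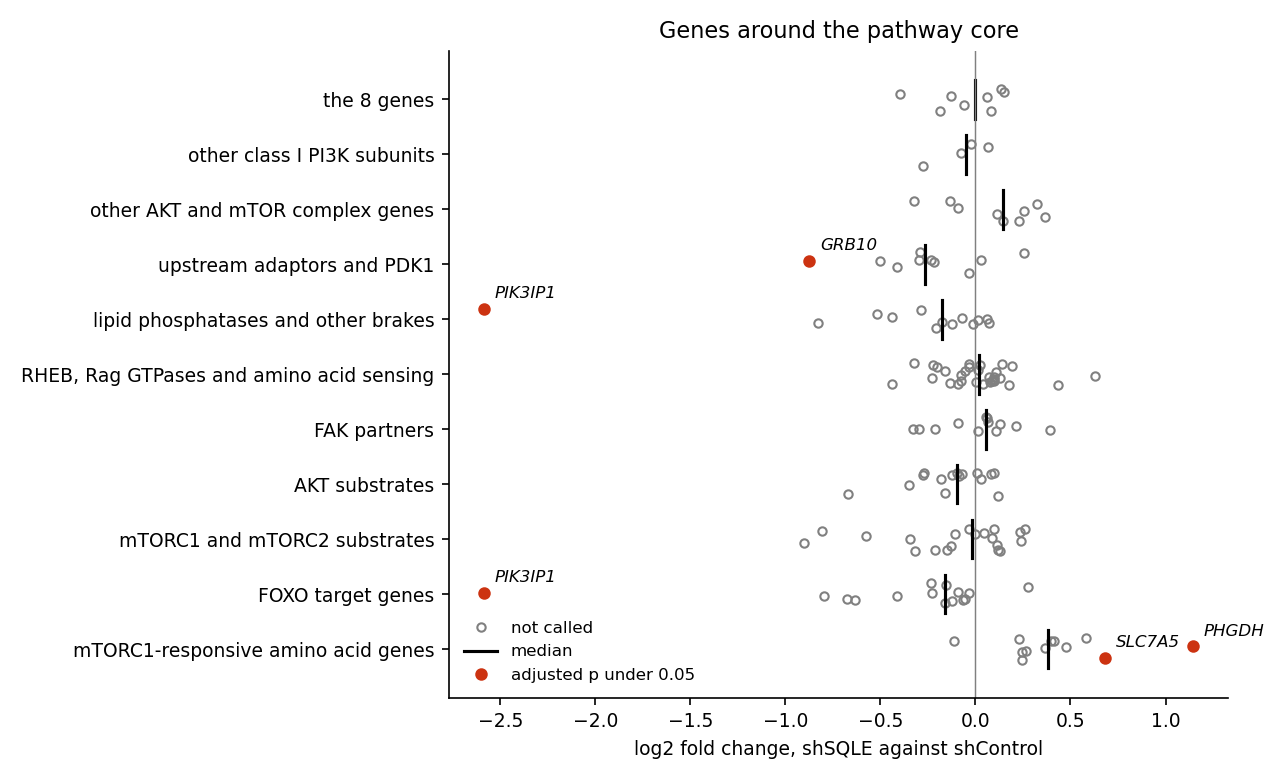
Log2 fold change of shSQLE against shControl for each tested gene of the 8-gene core and of the 10 pathway lists, with vertical placement within a list random, a black bar at the list's median and filled points for an adjusted p under 0.05. The filled points are GRB10, PIK3IP1 (in 2 lists), SLC7A5 and PHGDH, and the core lies between -0.40 and 0.15.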

How the data were processed

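The deposited table holds raw read counts by gene without any scaling, which the authors obtained by fastp trimming (0.20.0), STAR alignment to hg38 (2.7.9a) and featureCounts (2.0). Its annotation release, and whether strand or reads with several places were used, are not given in the sources used here. Symbols came from the gene tables for 19905 of 19937 identifiers, and positions, lengths and GC content from GENCODE v44.

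Here, genes were filtered with filterByExpr, scaled by TMM and tested in edgeR 4.0.16 (R 4.3.3, limma 3.58.1), for the effect of the hairpin alone, with p-values adjusted by Benjamini-Hochberg over 12450 genes and a threshold of 0.05. Standard errors are the log2 fold change over the root of F, and intervals use the total degrees of freedom of the fit (median 7.92). CPM used a prior count of 2, and ratios log2 of counts plus 0.5. Gene levels are per kb of the union of exons unless the canonical transcript is named. Windows were aligned with minimap2 2.31-r1302. The main edgeR fit was tested on simulated counts that held no gradient of GC content. The alternative fits were not tested in this way.

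Alternatives were DESeq2 1.42.0 (the study's tool), other size factors, other filters, a replicate block, smooth GC and length offsets (mgcv 1.9.3), another pseudocount for ratios, and each library left out. The 8 genes, the 10 pathway lists and the 2 marker lists were chosen with earlier results of these data known. Named are the 8 genes, SQLE, direct partners, up to 3 called genes per list by p (otherwise the smallest p), the most alike gene to each member, and genes overlapping a member. Equal replicate numbers did not pair the libraries. Some genes that this rule names are withheld and not reported here, though the counts over lists include them.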

Additional observations from a re-analysis of the deposited data

How the results depend on the processing

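Over the 8 genes and 16 alternative fits, 110 of 128 values kept their direction and their side of the threshold, 9 passed it and 9 changed sign. Equal replicate numbers share nothing in the labels, and the deviations of same-numbered libraries correlated at 0.138, -0.433 and 0.543, so no pairing was assumed. Libraries of unequal number reached like sizes, with shControl replicate 1 at 0.542 to shSQLE replicate 2 and at -0.595 to shSQLE replicate 3. With the replicate block the number of genes called went from 400 to 396, PIK3CA was at 0.00 and 0 of 8 genes were called. With GC and length offsets PIK3CA was at 0.17 (also 0.17 with the replicate block, and 0.12 without shControl replicate 1) and AKT2 at 0.24 (0.24 with the block, 0.26 without shControl replicate 1). The offsets gave 1 call among the 8 (20.8% of all genes), 1 with the block (19.2%) and 3 without shControl replicate 1 (36.9%), where RPTOR was at 0.17 and RICTOR at -0.21.

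Leaving out 1 library at a time moved PTK2 between -0.28 and -0.03, PIK3CA between -0.33 and 0.16, PIK3R1 between -0.44 and 0.07, AKT2 between 0.11 and 0.22, MTOR between -0.03 and 0.26 and RICTOR between -0.65 and -0.19, with 0 to 4 of the 8 called (0.864% to 33.9% of all genes). PIK3CA was above 0 without shControl replicate 2 (0.05) or 3 (0.16) and at 0.00 without shSQLE replicate 2, PIK3R1 was above 0 without shControl replicate 3 (0.07) and MTOR below 0 without shSQLE replicate 3 (-0.03). Of 134 pathway genes tested on 6 libraries, 4 were called (2 lower and 2 higher), 35 with the offsets (13 and 22, beside 20.8% of all genes) and 34 with offsets and block (12 and 22, beside 19.2%). DESeq2 called 9 of 144 (5.16% of all genes). Of 135 tested with 1 library left out, 2 to 59 were called, the 59 (34 lower and 25 higher, beside 33.9%) without shControl replicate 1 and GRB10 and PIK3IP1 alone without any other library, and offsets without shControl replicate 1 gave 57 of 135 (25 and 32, beside 36.9%). Their median was 0.06 in each fit with offsets and between -0.09 and 0.00 with 1 library left out. PIK3IP1 could not be tested at 10 counts in every library. Over all genes, calls with 1 library left out ranged from 109 (each shSQLE library) to 4264 (shControl replicate 1). The cause was not tested. On 6 libraries the intervals of RICTOR, PIK3CA and PIK3R1 reached beyond a 1.5-fold change.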

Other observations

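Several pathway genes were too low in U2OS to test. PIK3R2, which encodes the p85β regulatory subunit, had 2.94 to 6.17 normalized counts in the shSQLE libraries and a mean of 4.24 ± 1.8 in shControl against 5.01 ± 1.8 in shSQLE (SD, n = 3), and it shares exons on the same strand with another annotated gene under an unstated counting rule. The log2 ratio of PIK3R1 to PIK3R2 (difference -0.36, two-sided exact permutation test, p = 0.4, adjusted p = 0.5) rests on these few counts and is not read here as a balance of regulatory subunits. DEPTOR, an inhibitor within both mTOR complexes, averaged 5.61 ± 4.08 and 7.32 ± 1.24 normalized counts. PIK3R5 and PIK3R6, the regulatory subunits of the leukocyte PI3K gamma, had 0 counts in all 6 libraries. The catalytic gene PIK3CG was detected and tested, averaging 84.8 normalized counts in shControl and 89.7 in shSQLE (log2 fold change 0.07, adjusted p = 0.955, edgeR).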
